A study of Mus musculus with 12 samples.

Results

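The levels of 10 genes for CC chemokines that myeloid cells are known to make were followed in mouse prostate tumours: Ccl2, Ccl3, Ccl4, Ccl5, Ccl6, Ccl7, Ccl8, Ccl9, Ccl12 and Ccl24. They were taken by symbol from a table of raw read counts, in which all 10 of 10 were found among 23479 gene symbols, and all 10 were among the 15082 genes with enough counts to be tested. RNA-seq had been done in bulk on 12 tumours grown by injecting 100000 PTE-82 cells into the prostates of C57BL/6J mice, in 40 µl of PBS and Matrigel mixed 1:1. The labels describe the tumours as expressing TMPRSS2-ERG, a gene fusion found in human prostate cancer. The 4 groups of 3 tumours received Lupron plus anti-CSF1, anti-CSF1 alone, Lupron alone, or control IgG. Lupron (leuprolide), which lowers testosterone through the pituitary, was injected once, 0.6 mg on day 4, and the antibody to CSF1 on days 9 and 14. Every mouse carried the same cell line, and every tumour was taken on day 17 after perfusion with PBS. The sources used here do not give the ages of the mice, nor whether the mice given Lupron alone also received IgG.

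CC chemokines are small secreted proteins that draw leukocytes along a gradient by binding G protein-coupled receptors. Ccl2, Ccl7 and Ccl12 bind Ccr2, the receptor through which monocytes leave the bone marrow and enter inflamed tissue, and mouse Ccl8, of the same monocyte chemoattractant family, acts on Ccr8. Ccl6 and Ccl9 are mouse chemokines that bind Ccr1, Ccl3, Ccl4 and Ccl5 draw monocytes and T cells, and Ccl24 draws eosinophils through Ccr3. CSF1 is the growth and survival factor of most tissue macrophages, and acts through the receptor Csf1r.

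Total counts per library lay between 20584363 and 29965355, and RNA integrity numbers in the labels between 8.2 and 9.8. IgG replicate 3 stood apart: the mean of log2(CPM + 1) over 8 smooth muscle markers was 9.98 in it and 3.99 to 7.96 in the other 11 tumours, and over 6 luminal epithelial markers 8.18 in it and 4.07 to 6.48 in the others. CPM here are counts scaled to the size of each library. For the chemokines, the antibody test on all 12 tumours was therefore repeated without it, as were tests of marker lists whose calls or medians it moved most. Other chemokine tests are given without it only in part. Ratios, ranks by level and correlations use all 12 tumours and were not repeated without it. Lupron replicate 2 had the most seminal vesicle RNA, with 7 markers summing to 369609 CPM, against 257 to 105942 CPM in the other 11 tumours. The part of this tissue in the chemokine levels was not tested. Krt8 and Epcam, which mark epithelium, were found in all 12 tumours, at 26.0 to 286 CPM and at 8.45 to 272 CPM. Macrophage markers were lower with the antibody. Csf1r itself stood at 24.0, 15.1 and 19.8 CPM in tumours given Lupron plus anti-CSF1 and 27.1, 10.9 and 25.3 CPM in tumours given anti-CSF1, against 139, 80.5 and 106 CPM with Lupron and 113, 148 and 51.9 CPM with IgG.

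The antibody was first compared over both backgrounds, as the mean of its log2 difference with Lupron and its log2 difference without it, 6 tumours against 6. In this comparison 3 of the 10 chemokines fell: Ccl8, Ccl12 and Ccl6, by 7.51-fold, 8.57-fold and 3.44-fold. None rose, and the estimates nearest 0 were those of Ccl5 and Ccl2. Genes were called at an adjusted p under 0.05 in the quasi-likelihood test of edgeR, by the method of Benjamini and Hochberg over all genes tested, and 1.79 percent of these were called lower and 0.0796 percent higher. At an unadjusted p under 0.05 there were 4 of the 10 and 19.0 percent of all genes. DESeq2 called 4 of the 10, Ccl9 beside the 3, and 9.54 percent of all genes. In edgeR, Ccl9 joined the 3 as well without IgG replicate 1, when 10.1 percent of all genes were called, and without IgG replicate 3, when 3.13 percent were. The median log2 fold change was −0.75 over the 10 chemokines and 0.02 over all genes, and all 10 estimates were negative, as were 47.8 percent of all genes. In bulk RNA, fewer cells of a type and less RNA per cell cannot be told apart.

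Ccl8, of the monocyte chemoattractant family, stood at 4.89, 4.16 and 2.41 CPM in the 3 tumours given Lupron plus anti-CSF1 and 4.18, 7.30 and 3.95 CPM in those given anti-CSF1, against 16.9, 52.7 and 24.8 CPM with Lupron and 10.3, 48.9 and 46.2 CPM with IgG. Every antibody-treated tumour was below every tumour without antibody. The averaged log2 difference was −2.91 ± 0.43 (SE), with an adjusted p of 0.00931 in edgeR's quasi-likelihood test. Ccl8 was the only one of the 10 genes whose groups did not overlap in this comparison, a pattern that 1.69 percent of all genes showed in the lower direction. It was also the only one called in each of the 12 fits that left out 1 tumour, where the difference ran from −3.12 to −2.62. Without IgG replicate 3 the difference was −2.79 ± 0.43 (adjusted p = 0.00393, edgeR).

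Ccl12, a mouse ligand of Ccr2, stood at 3.21, 2.13 and 1.07 CPM in tumours given Lupron plus anti-CSF1 and 3.47, 4.31 and 2.2 CPM in those given anti-CSF1, against 27.2, 33.3 and 24.1 CPM with Lupron and 16.9, 35.9 and 2.74 CPM with IgG. IgG replicate 3, at 2.74 CPM, lay within the range of the antibody-treated tumours, and the other 5 tumours without antibody lay above all of them. Its averaged log2 difference was −3.10 ± 0.52, with an adjusted p of 0.0155 in edgeR's quasi-likelihood test. Without IgG replicate 3 it was −3.36 ± 0.31 (adjusted p = 0.000116, edgeR). The call was lost when replicate 2 or 3 of either antibody group was left out, with adjusted p of 0.063 and 0.0604 for the combination and of 0.059 and 0.065 for anti-CSF1 alone (edgeR).

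Ccl6 and Ccl9 are neighbouring mouse genes for ligands of Ccr1. Ccl6 stood at 19.2, 16.2 and 9.16 CPM in tumours given Lupron plus anti-CSF1 and 13.1, 18.5 and 10.2 CPM with anti-CSF1, against 19.2, 53.5 and 25.7 CPM with Lupron and 29.8, 116 and 78.2 CPM with IgG. The highest antibody-treated tumour and Lupron replicate 1 had nearly the same level, so the groups touched. For Ccl6 the averaged difference was −1.78 ± 0.37 on the log2 scale (adjusted p = 0.0364, edgeR's quasi-likelihood test). It held in 3 of 12 fits that left out 1 tumour, those without Lupron replicate 1 (adjusted p = 0.039, edgeR), IgG replicate 1 (0.00893) or IgG replicate 3 (0.0315). In the other 9 the adjusted p from edgeR was 0.068, 0.111 and 0.113 without combination replicates 1, 2 and 3, and 0.0856, 0.0803 and 0.122 without anti-CSF1 replicates 1, 2 and 3. It was 0.0979 and 0.0706 without Lupron replicates 2 and 3, and 0.09 without IgG replicate 2.

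Ccl9 stood at 25.0, 12.1 and 11.8 CPM in tumours given Lupron plus anti-CSF1 and 9.39, 13.2 and 8.35 CPM with anti-CSF1, against 20.1, 71.5 and 27.9 CPM with Lupron and 21.7, 125 and 42.3 CPM with IgG. Combination replicate 1 lay above Lupron replicate 1 and IgG replicate 1, and the other 5 antibody-treated tumours lay below all 6 without antibody. The averaged log2 difference of −1.95 ± 0.46 missed the threshold (adjusted p = 0.061, edgeR's quasi-likelihood test). It passed without IgG replicate 1 (−2.15, adjusted p = 0.0154) and without IgG replicate 3 (−2.06 ± 0.48, adjusted p = 0.0469, both edgeR), and in DESeq2 on all tumours (adjusted p = 0.000493).

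Ccl2 and Ccl7, both ligands of Ccr2, had IgG tumours at each end of their range. Ccl2 stood at 38.8, 37.5 and 21.2 CPM with Lupron plus anti-CSF1 and 42.1, 37.9 and 38.6 CPM with anti-CSF1, against 34.7, 28.1 and 26.4 CPM with Lupron and 31.2, 159 and 3.31 CPM with IgG. The IgG tumours alone spanned both the highest and the lowest of the 12 values, and the other 9 tumours lay between 21.2 and 42.1 CPM. The averaged log2 difference of Ccl2 was −0.29 ± 0.61 (adjusted p = 0.805, edgeR's quasi-likelihood test), and its sign rested on 1 tumour: it was 0.66 without IgG replicate 2 (adjusted p = 0.425, edgeR) and −0.57 ± 0.33 without IgG replicate 3 (0.455).

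Ccl7 stood at 12.0, 8.53 and 6.37 CPM with Lupron plus anti-CSF1 and 6.12, 20.6 and 11.1 CPM with anti-CSF1, against 9.27, 23.0 and 11.0 CPM with Lupron and 8.87, 55.4 and 1.32 CPM with IgG. As for Ccl2, IgG replicate 2 was the highest and IgG replicate 3 the lowest of the 12 tumours. The averaged log2 difference was −0.74 ± 0.67 (adjusted p = 0.545, edgeR's quasi-likelihood test), 0.31 without IgG replicate 2 (0.734) and −1.02 ± 0.47 without IgG replicate 3 (0.345).

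Ccl5, a chemokine that T and NK cells also make, stood at 51.6, 44.2 and 39.6 CPM with Lupron plus anti-CSF1 and 45.5, 42.8 and 39.5 CPM with anti-CSF1, against 49.4, 64.3 and 75.2 CPM with Lupron and 40.1, 82.6 and 7.76 CPM with IgG. Apart from IgG replicate 3, the 11 tumours lay between 39.5 and 82.6 CPM, and antibody-treated tumours overlapped the others. Averaged over both backgrounds, the log2 difference was −0.26 ± 0.40 (adjusted p = 0.732, edgeR's quasi-likelihood test), 0.18 without IgG replicate 2 (0.778) and −0.50 ± 0.19 without IgG replicate 3 (0.226). The summed level of 10 T and NK cell markers was 53.5 to 71.1 CPM with Lupron plus anti-CSF1 and 35.2 to 59.6 CPM with anti-CSF1, against 52.9 to 99.8 CPM with Lupron and 10.9 to 50.8 CPM with IgG. None of the 10 was at 0 in any tumour, and IgG replicate 3 was lowest for both Ccl5 and this sum. The part of T and NK cells in the level of Ccl5 was not tested.

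Ccl3, Ccl4 and Ccl24 were measured from few reads, with 7 to 94, 6 to 55 and 7 to 63 counts per tumour. Ccl3, a ligand of Ccr1, stood at 1.02, 0.480 and 1.34 CPM with Lupron plus anti-CSF1 and 1.16, 2.70 and 0.355 CPM with anti-CSF1, against 1.83, 3.27 and 3.27 CPM with Lupron and 1.79, 2.09 and 0.249 CPM with IgG. The 3 Lupron tumours lay above the 3 given the combination, and anti-CSF1 and IgG tumours overlapped. Its averaged log2 difference was −0.76 ± 0.60 (adjusted p = 0.486, edgeR's quasi-likelihood test), and −1.01 ± 0.50 without IgG replicate 3 (0.378).

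Ccl4, a close relative of Ccl3, stood at 0.704, 0.373 and 0.723 CPM with Lupron plus anti-CSF1 and 0.714, 1.23 and 0.498 CPM with anti-CSF1, against 1.32, 0.918 and 1.91 CPM with Lupron and 1.14, 1.21 and 0.214 CPM with IgG. It had the same order as Ccl3, with the combination below Lupron and no separation of anti-CSF1 from IgG. The averaged difference of Ccl4 was −0.63 ± 0.52 (adjusted p = 0.501, edgeR), and −0.86 ± 0.46 without IgG replicate 3 (0.410). Ccl24, the ligand of Ccr3, stood at 0.352, 0.800 and 0.861 CPM with Lupron plus anti-CSF1 and 0.782, 0.474 and 0.569 CPM with anti-CSF1, against 0.338, 1.03 and 0.243 CPM with Lupron and 0.342, 1.75 and 2.24 CPM with IgG. Here IgG replicates 2 and 3 were the highest, and the other tumours overlapped. The averaged difference of Ccl24 was −0.45 ± 0.58 (adjusted p = 0.673, edgeR), and −0.21 ± 0.64 without IgG replicate 3 (0.906).

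**Figure D1:**
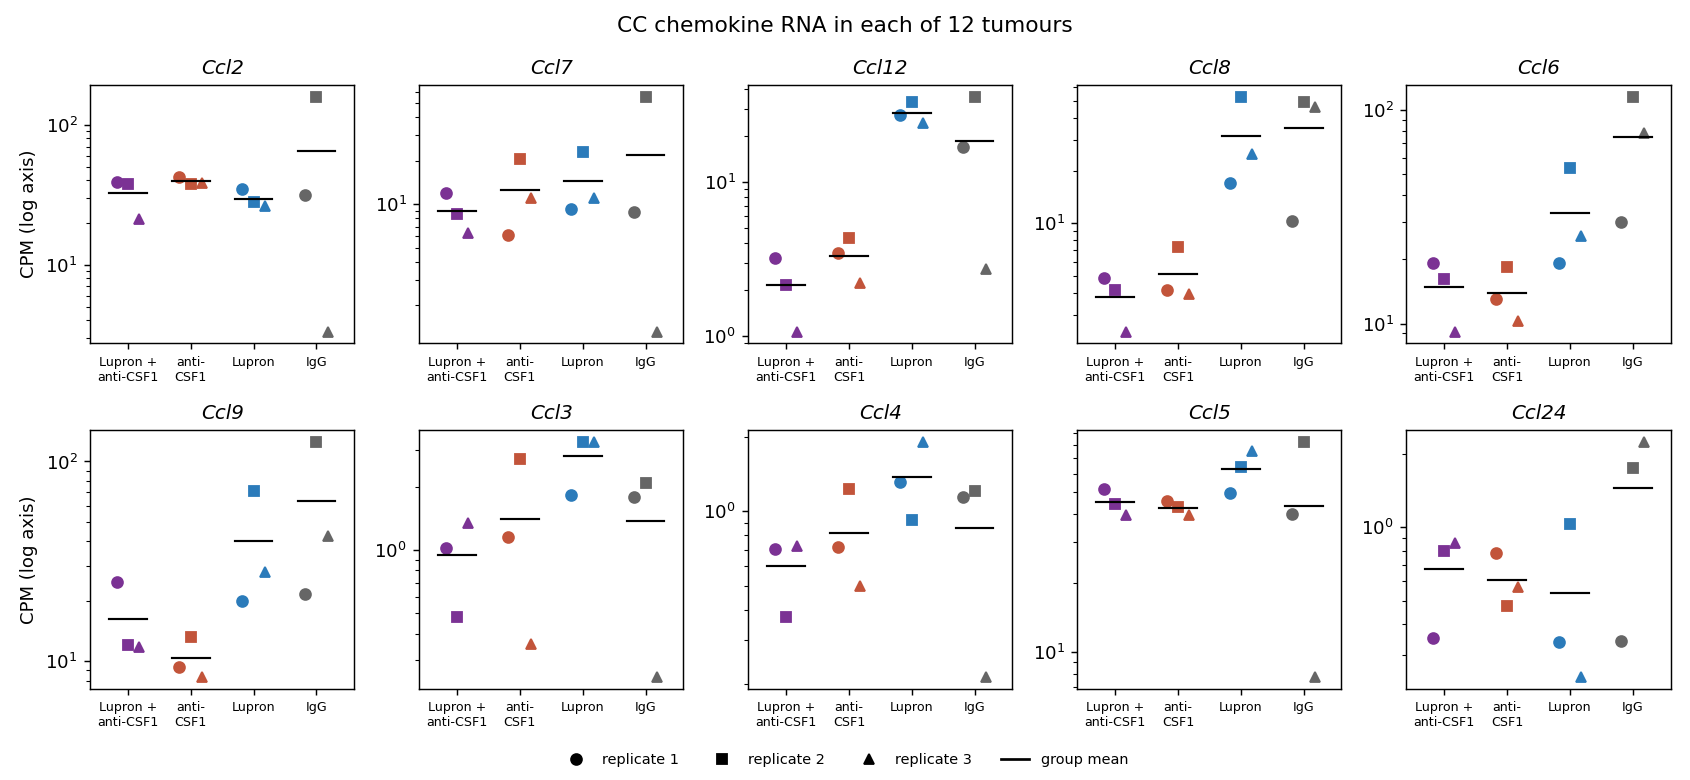
CPM of the 10 chemokine genes on log axes, 1 point per tumour and a line at each group's mean, for Lupron plus anti-CSF1, anti-CSF1, Lupron and IgG. Ccl8 is at 2.41 to 7.30 CPM in the 6 antibody-treated tumours and at 10.3 to 52.7 CPM in the other 6, while Ccl2 runs from 3.31 to 159 CPM within the IgG group alone.

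**Figure D2:**
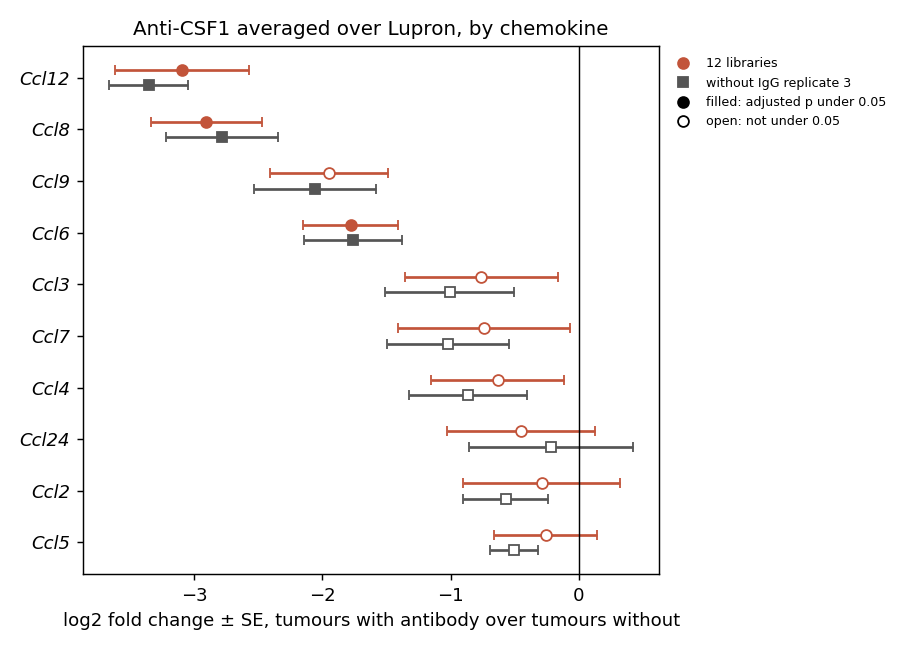
Log2 fold change with the antibody, averaged over both backgrounds, for each chemokine gene; bars are 1 standard error, circles use 12 tumours, squares leave out IgG replicate 3, and filled symbols have an adjusted p under 0.05 in edgeR. Ccl12, Ccl8 and Ccl6, at −3.10, −2.91 and −1.78, are filled in both fits, and Ccl9 only without IgG replicate 3, at −2.06.

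The 4 most reduced genes lie in 2 clusters, and promoter sequences were at hand for each of them and for Ccl3, 5 of the 10 genes. The sequences below are shown because these genes had the lowest averaged differences. They are the 150 bases before the annotated start, 5′ to 3′ on the strand of the gene, from RefSeq on GRCm38.p6, at chr11:82101695-82101844 (plus strand) for Ccl12, chr11:82115035-82115184 (plus) for Ccl8, chr11:83578637-83578786 (minus) for Ccl9 and chr11:83593088-83593237 (minus) for Ccl6. Capitals mark matches to the motifs searched.
Ccl12: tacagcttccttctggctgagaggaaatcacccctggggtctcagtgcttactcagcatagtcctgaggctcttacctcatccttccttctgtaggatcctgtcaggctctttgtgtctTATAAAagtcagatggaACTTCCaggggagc
Ccl8: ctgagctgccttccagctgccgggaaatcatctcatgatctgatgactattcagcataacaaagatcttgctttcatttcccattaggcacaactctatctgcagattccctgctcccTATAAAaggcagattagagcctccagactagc
Ccl9: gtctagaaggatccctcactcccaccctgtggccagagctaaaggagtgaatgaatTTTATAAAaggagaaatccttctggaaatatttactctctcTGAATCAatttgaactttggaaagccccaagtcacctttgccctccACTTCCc
Ccl6: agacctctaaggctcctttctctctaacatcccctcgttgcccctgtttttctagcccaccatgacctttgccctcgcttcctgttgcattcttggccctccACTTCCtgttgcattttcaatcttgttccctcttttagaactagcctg

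Motifs were searched on both strands, and a match only describes letters in this window. The TATA box (TATAAA), which 7.57 percent of 32851 promoter windows of the same length held, was found at −31 to −26 from the start of Ccl12 and at −32 to −27 in Ccl8. In Ccl9 it was found at −92 to −87, overlapping a match on the other strand at −94 to −89. The string GGAAGT, searched for PU.1 of the ETS family (13.6 percent of windows), was found, as its reverse complement ACTTCC, in Ccl12, Ccl9 and Ccl6. Shorter or other ETS strings were not searched. For AP-1 the loose string TGANTCA, with any base in the middle, was searched (4.24 percent), and Ccl9 held it as TGAATCA. The motifs of C/EBP (TTGCNNAA, 5.46 percent), NF-kB (GGGA and CC with 4 bases between, 11.9 percent) and the interferon-stimulated response element (GAAA, 2 bases and GAAA, 1.59 percent) gave no match in the 5 windows, and Ccl3 held none of these motifs. The windows of Ccl12 and Ccl8 were identical at 92 of 155 aligned positions (59.4 percent), against 43.0 to 51.8 percent for the other 9 pairs.

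By position on chromosome 11 (GRCm38, GENCODE M21), the starts of Ccl2, at chr11:82035571-82037453, and Ccl7, at chr11:82045712-82047525, lie 10.1 kb apart. Ccl12, at chr11:82101845-82103400, and Ccl8, at chr11:82115185-82116799, begin 66.3 and 79.6 kb from the start of Ccl2. Within this cluster the averaged log2 difference was −0.29 for Ccl2 and −0.74 for Ccl7, which were not called, and −3.10 for Ccl12 and −2.91 for Ccl8, which fell. The differences between these genes were not tested as such. Ccl11, an eotaxin between the pairs, had −0.81 ± 0.53 (adjusted p = 0.412, edgeR's quasi-likelihood test).

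The second cluster begins 1490.2 kb from the lower end of Ccl2 and holds Ccl5 (chr11:83525778-83530518), Ccl9 (chr11:83572919-83578636), Ccl6 (chr11:83587882-83593087), Ccl3 (chr11:83647844-83649355) and Ccl4 (chr11:83662584-83664683). Ccl9 and Ccl6, at −1.95 and −1.78, lie side by side between Ccl5, at −0.26, and Ccl3 and Ccl4, at −0.76 and −0.63 on the log2 scale. Ccl24 lies alone on chromosome 5 (chr5:135569937-135573049). The annotation places Gm17268 on the opposite strand over Ccl2 and E230016K23Rik over Ccl6. The sources used here do not give the strand setting of the counting, so reads of these overlapping genes cannot be told apart. The longest exact stretch shared by transcripts of any pair of the 10 genes was 25 bases, between Ccl6 and Ccl9.

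**Figure D3:**
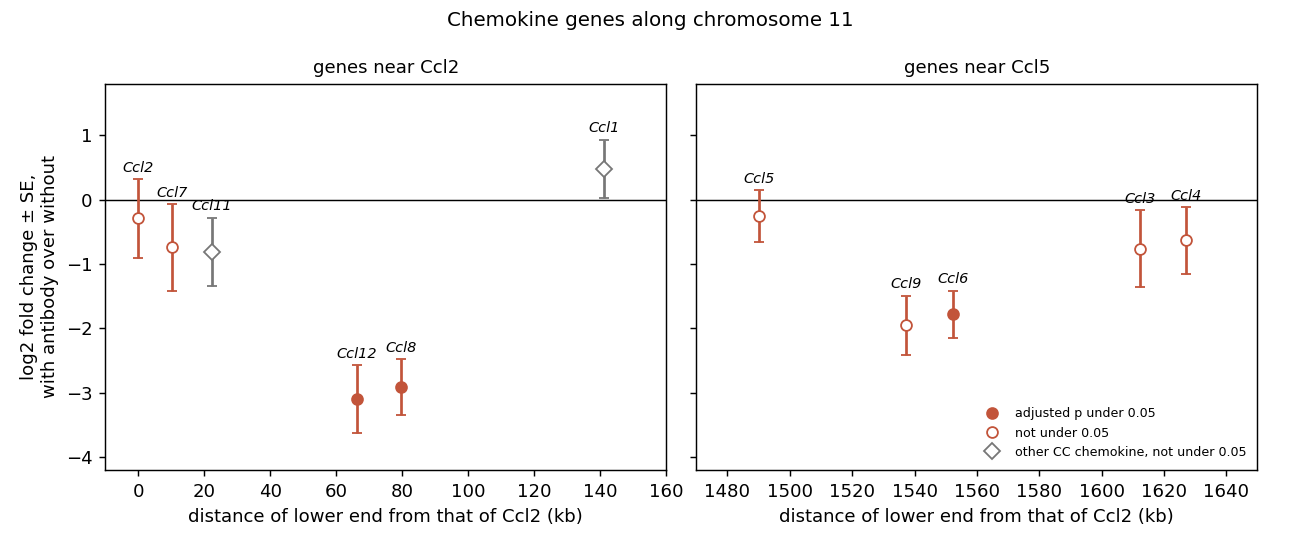
Averaged log2 fold change with the antibody against distance in kb from Ccl2, in a panel for each of the 2 clusters; bars are 1 standard error, filled circles have an adjusted p under 0.05, and diamonds are Ccl11 and Ccl1, which are not among the 10 genes. Ccl12 and Ccl8, at −3.10 and −2.91, lie well below Ccl2 and Ccl7, at −0.29 and −0.74.

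Counts of the other genes were also set against those of Ccl2 in the same tumour, a measure that needs no scaling between libraries. For Ccl12 the ratio was 0.0827, 0.0569 and 0.0503 with Lupron plus anti-CSF1 and 0.0825, 0.114 and 0.0570 with anti-CSF1, against 0.784, 1.19 and 0.914 with Lupron and 0.541, 0.226 and 0.828 with IgG. IgG replicate 3, which overlapped the antibody-treated tumours in CPM, was above all of them in this ratio. Ccl8 to Ccl2 was 0.0994 to 0.193 in the 6 tumours with antibody and 0.307 to 14.0 in the 6 without, and Ccl6 to Ccl2 was 0.265 to 0.496 and 0.555 to 23.6. These 3 ratios did not overlap between tumours with and without antibody, as was so, in the lower direction, for 0.491 percent of the 15081 genes other than Ccl2. The upper ends of both Ccl8 and Ccl6 came from IgG replicate 3, in which Ccl2 was lowest. Ratios of Ccl9, Ccl7, Ccl5, Ccl3, Ccl4 and Ccl24 to Ccl2 overlapped. Such a ratio shows unequal change and not which gene changed.

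**Figure D4:**
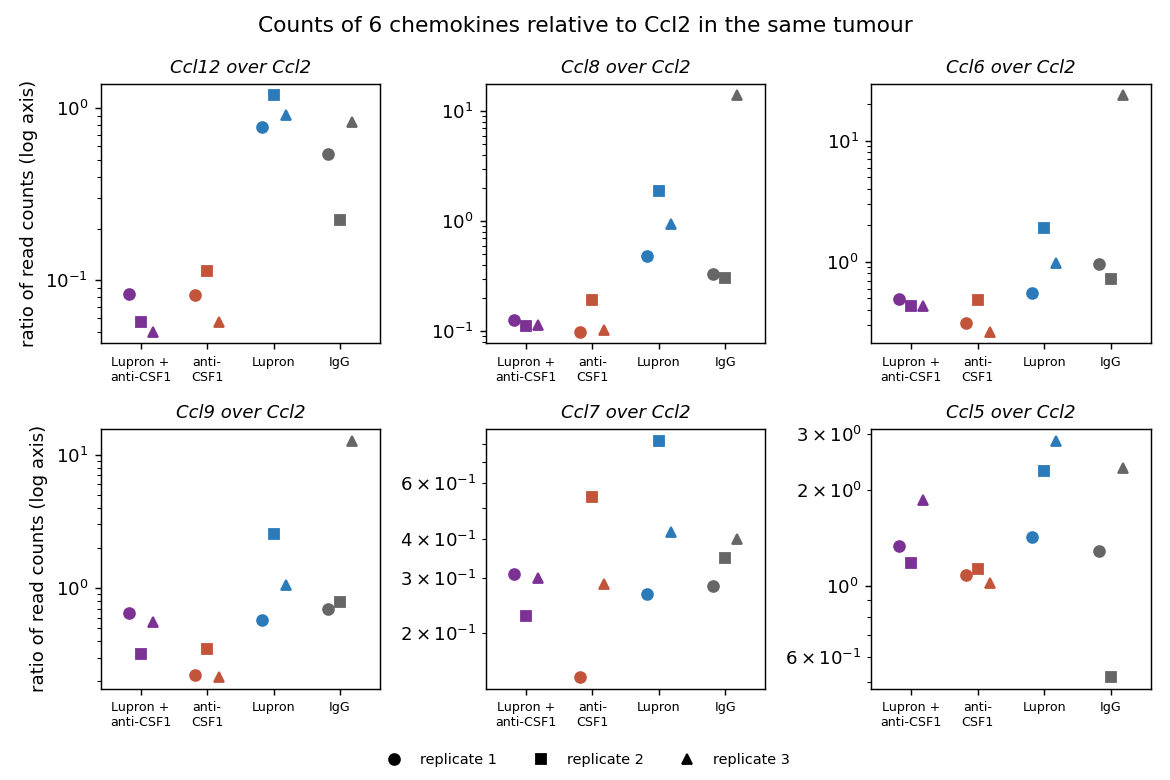
Ratio of counts to Ccl2 in each of 12 tumours, on log axes, for the 6 chemokine genes with most reads, grouped as Lupron plus anti-CSF1, anti-CSF1, Lupron and IgG. Ccl12, Ccl8 and Ccl6 separate the 6 antibody-treated tumours from the other 6, with Ccl12 at 0.0503 to 0.114 with antibody and 0.226 to 1.19 without.

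Counts were set against those of Csf1r, a marker of macrophages, in the same way. The ratio of Ccl5 to Csf1r was 2.15, 2.93 and 2.00 with Lupron plus anti-CSF1 and 1.68, 3.93 and 1.56 with anti-CSF1, against 0.356, 0.799 and 0.713 with Lupron and 0.355, 0.558 and 0.149 with IgG. All 6 antibody-treated tumours lay above the other 6 for Ccl5 and for Ccl4, as did 63.1 percent of the other genes, so this share is the background. Ratios to Csf1r overlapped for Ccl8, at 0.122 to 0.670 with antibody and 0.0916 to 0.890 without. They also overlapped for Ccl12, at 0.0540 to 0.396 with antibody and 0.0528 to 0.414 without, and for Ccl6, Ccl9, Ccl2, Ccl7, Ccl3 and Ccl24.

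The falls of Ccl8, Ccl12 and Ccl6 went along with lower macrophage markers. Of 9 macrophage markers tested, 7 fell in the averaged comparison and none rose, with a median log2 difference of −2.31, and without IgG replicate 3 again 7 fell, with a median of −2.52. Their summed level was 169 to 236 CPM with Lupron plus anti-CSF1 and 152 to 290 CPM with anti-CSF1, against 899 to 1175 CPM with Lupron and 392 to 1193 CPM with IgG, and none was at 0 in any tumour. Of 7 monocyte markers 1 fell, F13a1, at −1.80 ± 0.35 (adjusted p = 0.0268, edgeR), called in 4 of 12 fits without 1 tumour, and the median over the 7 was −0.44. Smooth muscle markers had a median of −2.35 over 8 genes, and of −1.50 without IgG replicate 3, with none called in either fit, and a summed level of 303 to 682 CPM with Lupron plus anti-CSF1 and 225 to 484 CPM with anti-CSF1, against 272 to 1629 CPM with Lupron and 507 to 12337 CPM with IgG. The part of these cells in the chemokine levels was not tested.

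With anti-CSF1 alone against IgG, 3 tumours against 3, the lowest estimates were those of Ccl8 (−2.77 ± 0.61), Ccl9 (−2.61 ± 0.67), Ccl12 (−2.48 ± 0.72) and Ccl6 (−2.42 ± 0.53). None of the 10 was called by edgeR's quasi-likelihood test, with adjusted p of 0.0903, 0.0905, 0.1 and 0.0903 for these 4, and 0.00663 percent of all genes were called. The 4 had an unadjusted p under 0.05, as did 22.8 percent of all genes, and DESeq2 called these 4 and 12.3 percent of all genes. The anti-CSF1 and IgG tumours did not overlap for Ccl6, Ccl8 and Ccl9, as for 12.8 percent of all genes in the lower direction. The median was −1.02 over the 10 genes and 0.01 over all. The calls depended on the IgG tumours: without IgG replicate 1, Ccl8, Ccl6 and Ccl9 were called (adjusted p = 0.00847, 0.00888 and 0.014, edgeR), with 16.8 percent of all genes. Without IgG replicate 3, Ccl12 was called (−2.99, adjusted p = 0.00889, edgeR), with 1.11 percent of all genes. In a fit without IgG replicate 2, the differences of Ccl2, Ccl7 and Ccl5 were 1.20, 1.31 and 0.84, against −0.71, −0.80 and −0.03 with all tumours.

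In mice given Lupron, the combination was compared with Lupron alone. Ccl12 had −3.72 ± 0.76 and Ccl8 −3.04 ± 0.62, neither called by edgeR's quasi-likelihood test (adjusted p = 0.117 for both), and 0 of the 10 genes and 0 percent of all genes were called. At an unadjusted p under 0.05 there were 3 of the 10 and 4.26 percent of all genes, and DESeq2 called Ccl12 and Ccl8 (adjusted p = 2.09e-05 and 0.000109) and 1.61 percent of all genes. The combination and Lupron tumours did not overlap for Ccl8, Ccl12, Ccl3 and Ccl4, as for 6.93 percent of all genes in the lower direction, and Ccl3 and Ccl4 had −1.54 ± 0.86 and −1.19 ± 0.74. Ccl2 was 0.13 ± 0.87 and Ccl24 0.34 ± 0.83, the only positive estimates. The spread in this fit is shared with the IgG tumours: with the 6 compared tumours alone, Ccl12 and Ccl8 were called (adjusted p = 0.00312 and 0.0145, edgeR), with 1.43 percent of all genes, and without IgG replicate 3 they were too (0.00173 and 0.0333), with 1.38 percent of all genes.

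For the combination against IgG, which shares its controls with the previous comparison of anti-CSF1, Ccl8 had −3.20 ± 0.62, Ccl12 −3.11 ± 0.74, Ccl6 −2.33 ± 0.53 and Ccl9 −1.95 ± 0.65 on the log2 scale. No member of the family was called by edgeR's quasi-likelihood test (adjusted p = 0.0992, 0.112, 0.112 and 0.122), as for all but 0.00663 percent of genes. The unadjusted p of these 4 was under 0.05, as for 26.0 percent of all genes, and DESeq2 called them with 14.3 percent of all genes. Leaving out IgG replicate 1 brought all 4 under the threshold (adjusted p = 0.01, 0.0337, 0.0141 and 0.0319, edgeR), with 14.2 percent of all genes. Leaving out IgG replicate 3 did so for Ccl12 alone (adjusted p = 0.00404, edgeR), with 1.37 percent of all genes. Groups did not overlap for Ccl8 and Ccl6, as for 12.7 percent of all genes in the lower direction.

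No chemokine was called with Lupron alone. Against IgG, 0 of the 10 and 0 percent of all genes passed edgeR's quasi-likelihood test, DESeq2 called 0 of the 10 and 2.71 percent of all genes, and 1 of the 10, Ccl6, had an unadjusted p under 0.05, as did 16.4 percent of all genes. Ccl6 averaged 32.8 ± 18.2 CPM with Lupron and 74.6 ± 43.1 CPM with IgG (SD, n = 3 each), a log2 difference of −1.19 ± 0.51 (adjusted p = 0.292, edgeR). Ccl12 averaged 28.2 ± 4.70 CPM with Lupron and 18.5 ± 16.6 CPM with IgG, a difference of 0.61 ± 0.68 (adjusted p = 0.638, edgeR). Lupron and IgG tumours overlapped for all 10 genes, while 8.53 percent of all genes were lower without overlap and 11.1 percent higher. Averaged over the antibody, the Lupron estimates ran from −0.70 for Ccl2 to 0.31 for Ccl5, with 0 of the 10 and 0 percent of all genes called by edgeR, 0 of the 10 and 9.06 percent of all genes at an unadjusted p under 0.05, and 0 of the 10 and 0.0804 percent of all genes called by DESeq2.

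Whether the antibody difference depended on Lupron was tested as an interaction, the log2 difference with Lupron minus that without. It was −0.27 ± 0.81 for Ccl8 (adjusted p = 0.943, edgeR's quasi-likelihood test) and −1.25 ± 0.98 for Ccl12 (0.855). It was 1.28 ± 0.72 for Ccl6 (0.811) and 1.33 ± 0.89 for Ccl9 (0.846). None of the 10 and 0 percent of all genes were called, 0 of the 10 and 6.77 percent of all genes had an unadjusted p under 0.05, and DESeq2 called 0 of the 10 and 1.26 percent of all genes. A p above the threshold does not show that the antibody differences with and without Lupron were alike.

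To rank the genes by level, CPM were divided by exon length. With Lupron plus anti-CSF1, Ccl5 was first at 47.0 ± 6.33 CPM per kb (SD, n = 3), followed by Ccl2 at 28.5 ± 8.60 and Ccl7 at 11.2 ± 3.53 CPM per kb. With anti-CSF1 the order of these 3 was the same, at 44.4 ± 3.16, 34.8 ± 1.95 and 15.7 ± 9.20 CPM per kb. In both antibody groups Ccl5 and Ccl2 did not overlap in range. With Lupron, Ccl5 (65.6 ± 13.5), Ccl8 (61.6 ± 36.8) and Ccl12 (52.5 ± 8.74 CPM per kb) led, and their ranges overlapped. With IgG, Ccl8 (68.8 ± 42.1), Ccl2 (56.8 ± 73.0), Ccl5 (45.3 ± 39.1) and Ccl6 (41.6 ± 24.0 CPM per kb) led, again with overlapping ranges. Ccl12 was ranked after Ccl9 with the combination, at 3.98 ± 1.99 CPM per kb against 5.35 ± 2.48 for Ccl9, and their ranges overlapped. Ccl3, Ccl4 and Ccl24 were the last 3 in all 4 groups, at 0.415 to 3.64 CPM per kb on average.

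Across the 12 tumours, the levels of the genes were compared by Pearson correlations of log2(CPM + 1). All share libraries, tissue content and treatment, so no test was made. Ccl6 and Ccl9 had r = 0.94, Ccl6 and Ccl8 0.91, Ccl8 and Ccl9 0.89, Ccl3 and Ccl4 0.89, and Ccl2 and Ccl7 0.86. Ccl2 had r = −0.02 with Ccl6 and −0.12 with Ccl8. Ccl5 had r = 0.85 with Ccl2, 0.82 with Ccl7 and 0.69 with Ccl4. For Ccl2, Ccl7 and Ccl5 alike, IgG replicate 2 was the highest and IgG replicate 3 the lowest of the 12 tumours. Their r values lean on these extremes. In the Lupron tumours the order was opposite, with Ccl2 at 34.7, 28.1 and 26.4 CPM and Ccl5 at 49.4, 64.3 and 75.2 CPM. Correlations without IgG replicates 2 and 3 were not computed. Ccl12 had r = 0.74 with Ccl8, 0.73 with both Ccl3 and Ccl4, and 0.60 with Ccl6. Among 9447 other genes with a mean of at least 10 CPM, those most like Ccl12 included Igsf6 (r = 0.979) and Slamf9 (0.978). Those most like Ccl8 were Sepp1 (0.968), Adrbk2 (0.945) and Fgd4 (0.932), and most like Ccl6 were Tlr4 (0.949), Ccl9 (0.935) and Fgd4 (0.930). Most like Ccl9 were Ccl6, Ccr2 (0.913) and Atp8a1 (0.907). The genes first in likeness to Ccl2, Ccl7, Ccl5, Ccl3, Ccl4 and Ccl24 were Khdrbs3 (0.973), Mx1 (0.899), Orc1 (0.952), Ikbke (0.869), Sh3bp2 (0.884) and Rab4a (0.954).

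Receptors of the chemokines were described next, in the averaged antibody comparison. Ackr1 and Ackr2 were not analysed here. Ccr1, the receptor of Ccl3, Ccl5, Ccl6 and Ccl9, stood at 11.2, 12.1 and 8.61 CPM with Lupron plus anti-CSF1 and 13.5, 14.9 and 8.25 CPM with anti-CSF1, against 61.8, 74.3 and 48.3 CPM with Lupron and 40.2, 47.3 and 5.23 CPM with IgG. Only IgG replicate 3, at 5.23 CPM, broke the separation. Ccr1 fell, with a log2 difference of −1.94 ± 0.42 (adjusted p = 0.0453, edgeR's quasi-likelihood test) and −2.19 ± 0.19 without IgG replicate 3 (adjusted p = 7.58e-05). Of 12 fits without 1 tumour it was called in 2, those without IgG replicate 1 or 3, with an adjusted p of up to 0.151 in the others (edgeR).

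Ccr2, the receptor of Ccl2, Ccl7 and Ccl12, had −1.39 ± 0.38 (adjusted p = 0.0997) and −1.54 ± 0.36 without IgG replicate 3 (adjusted p = 0.0424, edgeR). Ccr3 had −1.33 ± 0.65, Ccr8 −1.23 ± 0.88 and Ccrl2, which binds chemokines without known signalling, −0.23 ± 0.33.

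Of 8 other CC chemokines listed, 6 were tested and none was called by edgeR's quasi-likelihood test, and their median log2 difference was 0.27. Ccl22 and Ccl17, ligands of Ccr4, had 0.80 ± 0.37 and 0.76 ± 0.53 (adjusted p = 0.263 and 0.436, edgeR). Of the 6 estimates 4 were positive and 2, those of Ccl11 and Ccl28, were negative. Among 12 tested genes that induce or signal to chemokine genes, 2 fell and none rose, with a median of −0.10, and without IgG replicate 3 there were 3, with Il1b, an inflammatory cytokine, at −1.12 ± 0.21 (adjusted p = 0.0115, edgeR). The 2 called with all tumours were Irf5, a transcription factor of inflammatory macrophages, at −1.51 ± 0.26 (adjusted p = 0.0152, edgeR), and Irf8, a factor of the monocyte lineage, at −0.71 ± 0.16 (adjusted p = 0.0454). Irf5 was called in 8 of 12 fits without 1 tumour, but not without replicate 2 or 3 of either antibody group, with an adjusted p of up to 0.0619, and Irf8 in 2, those without IgG replicate 1 or 3, with up to 0.148 (edgeR).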

How the data were processed

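The 12 libraries, 1 per tumour, were put into 4 groups of 3 by their sample titles. The deposited table holds raw counts per gene symbol, whole numbers with no scaling. Per the submitters' processing notes, bcl2fastq 2.20.0.422, cutadapt 1.8.1, HTSeq 0.6.1 and genome build mm10 were used; the sources used here name no aligner, annotation or strand setting, nor separate batches. The labels do not say that the replicates came from separate experiments, so p-values measure the spread between these tumours.

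Counts were fitted in R 4.3.3 with edgeR 4.0.16: the low-count filter left 15082 genes, libraries were scaled with TMM factors, and the model had 1 mean per group, 12 libraries and a robust quasi-likelihood F test, two-sided, with Benjamini-Hochberg adjustment over all genes tested. Levels are CPM on scaled totals, and SE is the log2 fold change over the square root of F. On simulated counts for the averaged antibody comparison (14905 genes, 195 changed), 30.6 percent of 2-fold and 69.1 percent of 4-fold changes were recovered, with 6 false calls. The simulation drew tumours independently, with none set apart as IgG replicate 3 was, so the rates in these data may differ. An exact permutation test of 3 tumours against 3 cannot give a p under 0.1. Exon lengths and positions are from GENCODE M21. No pair of libraries was close enough to be a duplicate: over genes of at least 20 counts, chi-square divided by its degrees of freedom was 38.0 or more in all 66 pairs.

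The 10 genes and all lists (receptors, other CC chemokines, inducers, and markers of T and NK cells, macrophages, monocytes, dendritic cells, neutrophils, eosinophils and mast cells, fibroblasts, smooth muscle, luminal epithelium, prostate secretion and seminal vesicle) were chosen with earlier results of these data known, from general knowledge. Genes named beside the 10 are receptors, other CC chemokines, list members that were called or stand beside a result, and for each of the 10 the 3 genes of at least 10 mean CPM most correlated with it, without predicted genes. Results on a few items that these rules or lists hold are left out of the text. Alternatives were RLE scaling, no low-count filter, DESeq2 1.42.0 (genes without an adjusted p left out), a fit to the compared groups, a replicate block, leaving out each tumour, and, chosen after seeing the data, leaving out IgG replicates 2 and 3 together.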

Additional observations from a re-analysis of the deposited data

How the results depend on the processing

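Under RLE scaling and without the low-count filter, all 70 member estimates kept their direction and their side of the threshold. DESeq2 kept 59 and brought 11 under the threshold. It called 4, 2 and 4 of the 10 for anti-CSF1 against IgG, the combination against Lupron and the combination against IgG, where edgeR called 0, and 1425, 1841, 236, 2094, 404, 12 and 188 of all genes for the averaged antibody, these 3, Lupron against IgG, averaged Lupron and the interaction, where edgeR called 282, 1, 0, 1, 0, 0 and 0. RLE scaling called 2, 5 and 3 genes of all for the 3 comparisons, no filter 2 and 3 for the combination against Lupron and against IgG, and a fit to the compared groups 0, 204 and 0, with 2 of the 10 called against Lupron. The cause of these shifts was not tested.

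Leaving out 1 tumour moved the averaged antibody calls to between 1 and 4 of the 10 and between 65 and 1577 of all genes, lowest without anti-CSF1 replicate 3 and highest without IgG replicate 1. For anti-CSF1 against IgG the calls were 0 to 3 and 0 to 2611, for the combination against Lupron 0 to 2 and 0 to 210, and against IgG 0 to 4 and 0 to 2213. They were 0 to 653 of all genes for Lupron against IgG, 0 to 2 for averaged Lupron and 0 to 5 for the interaction, with none of the 10. Estimates of uncalled genes changed sign in some of these fits. Averaged antibody: Ccl2 ran from −0.57 to 0.66, Ccl5 from −0.50 to 0.18, Ccl7 from −1.02 to 0.31, and Ccl24, with no change of sign, from −0.68 to −0.029. Anti-CSF1 against IgG: Ccl2 −1.27 to 1.20, Ccl3 −0.85 to 0.49, Ccl4 −0.53 to 0.26, Ccl5 −0.53 to 0.84, Ccl7 −1.35 to 1.31. Combination against Lupron: Ccl2 −0.0088 to 0.37, Ccl24 −0.0079 to 1.21. Combination against IgG: Ccl2 −1.55 to 0.91, Ccl5 −0.44 to 0.92, Ccl7 −1.84 to 0.82. Lupron against IgG: Ccl2 −1.68 to 0.78, Ccl7 −1.16 to 1.50, Ccl8 −0.79 to 0.16, Ccl9 −1.43 to 0.32. Averaged Lupron: Ccl2 −0.98 to 0.25, Ccl3 −0.012 to 0.67, Ccl4 −0.092 to 0.34, Ccl7 −0.82 to 0.51, Ccl9 −0.37 to 0.49, Ccl12 −0.27 to 0.44. Interaction: Ccl2 −1.07 to 1.39, Ccl5 −1.32 to 0.044, Ccl7 −1.99 to 0.69, Ccl8 −0.59 to 0.39. Leaving out IgG replicates 2 and 3 together left 1 IgG tumour, so only effect sizes are given. The averaged antibody difference was then −3.04 for Ccl12, −2.03 for Ccl8, −1.12 for Ccl6, 0.23 for Ccl2 and 0.58 for Ccl24.

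Correlations did not settle whether replicate numbers pair the tumours. Over 18 pairs of the same number the correlation of deviations from the group means ran from −0.304 to 0.513. Its median was 0.095, against −0.060 for pairs of unlike number. For 6 of 12 libraries, the correlation averaged by replicate number was highest for their own number. With the replicate block, 151 of all genes and 2 of the 10 were called for the averaged antibody, with Ccl6 lost (−1.68, adjusted p = 0.0547, edgeR), and 0 of all genes for anti-CSF1 or the combination against IgG. Estimates of Ccl3 and Ccl5 for anti-CSF1 against IgG were −0.017 and 0.17, of Ccl7 for Lupron against IgG 0.021, of Ccl9 and Ccl12 for averaged Lupron 0.099 and 0.18, and of Ccl7 for the interaction −0.27. Ccl3, Ccl4 and Ccl24, with 6 to 94 counts per tumour, limit what can be detected for them.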

Other observations

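In edgeR's averaged antibody comparison, 0 of 6 tested neutrophil markers, 0 of 8 dendritic cell markers, 0 of 10 T and NK cell markers and 0 of 5 eosinophil and mast cell markers were called, with median log2 differences of 0.28, −0.32, −0.04 and 0.05. Without IgG replicate 3, 1 of the 8 dendritic cell markers was called, Itgax, which macrophages also express, at −1.85 ± 0.26 (adjusted p = 0.00163, edgeR), and the medians were 0.22 over 7 tested neutrophil markers, −0.42, −0.30 and 0.0034. Neutrophil markers summed to 523 to 979 CPM with Lupron plus anti-CSF1 and 535 to 891 CPM with anti-CSF1, against 193 to 589 CPM with Lupron and 16.1 to 309 CPM with IgG. The most abundant genes weigh most in such a sum. Their mean of log2(CPM + 1) overlapped, at 1.90 to 2.78 and 1.90 to 2.81 with antibody, 1.86 to 2.47 with Lupron and 0.82 to 2.29 with IgG. IgG replicate 3 was lowest on both measures. Ccl24, the eosinophil attractant, was highest in IgG replicates 2 and 3, and eosinophil and mast cell markers summed to 7.25 to 14.5 CPM with Lupron plus anti-CSF1 and 12.0 to 19.6 CPM with anti-CSF1, against 8.86 to 14.3 CPM with Lupron and 10.5 to 20.8 CPM with IgG.

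Fibroblast markers, 0 of 8 called, summed to 1560 to 2879 CPM with Lupron plus anti-CSF1 and 1815 to 3952 CPM with anti-CSF1, against 1237 to 2065 CPM with Lupron and 2223 to 3435 CPM with IgG. None of 6 luminal epithelial, 4 prostate secretion and 7 seminal vesicle markers was called, with medians of −1.39, −3.28 and 0.34. Without IgG replicate 3, 1 of the 6 luminal markers was called, Spint1, at −1.27 ± 0.21 (adjusted p = 0.00542, edgeR), and these medians were −0.84, −3.34 and 0.051. Of the other CC chemokines, Ccl28, made by epithelium, had the lowest averaged estimate, −2.33 ± 1.00 (adjusted p = 0.238, edgeR). Il6, a cytokine of stroma and myeloid cells, had 1.74 ± 0.69 (adjusted p = 0.215, edgeR).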
